A study of Drosophila melanogaster with 4 samples.

Results

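The Iroquois complex is a cluster of 3 homeobox genes, araucan (ara), caupolican (caup) and mirror (mirr), on arm 3L of the Drosophila melanogaster genome. Polycomb (Pc) binding over it was measured by ChIP-seq in wild-type embryos of the Oregon-R strain collected at 14 to 16 h of development. The labels give Oregon-R-modENCODE as the official strain name, and no other genotype or treatment was part of the series. There were 2 Pc ChIP libraries, each with its own deposited list of enriched regions, and 2 input libraries without values of their own here. Every region that overlapped the 200 kb window between 12.54 Mb and 12.74 Mb of 3L (FlyBase r5) was taken as part of the complex. This gave 6 of the 1189 regions in replicate 1 and 4 of the 1405 regions in replicate 2, or 10 of 2594 in all. The window was chosen by its position and with the wide regions in it already known. Its coverage, widths and scores are therefore described and not tested. The labels do not say whether the libraries came from separate embryo collections, and the read depth behind each region was unknown. The antibody was applied to chromatin from whole embryos, so a list cannot tell the cells in which a region was bound.

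Iroquois proteins are transcription factors with a homeodomain of the TALE class. In the fly, ara and caup activate the proneural genes achaete and scute in the wing disc, where they help to place sensory organs and veins. mirr takes part in setting the dorsal-ventral boundary of the eye and the dorsal fate of ovarian follicle cells, and all of the complex's genes contribute to dorsal head and notum identity. Pc is a subunit of Polycomb repressive complex 1, and its chromodomain binds methylated histone H3. Polycomb group proteins keep developmental regulators silent in cells where they are not to be expressed, often over whole gene complexes.

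The genes lie in the order ara (CG10571), caup (CG10605) and mirr (CG10601) along 3L in the RefSeq annotation of the Release 6 assembly. No annotated gene starts between ara and caup. Between caup and mirr start 4 genes, all of them long non-coding RNAs (CR32111, CR43431, CR44553 and CR44552). The nearest protein-coding genes on the ara side are sowah, CG4069 and Pmm2, which encodes a phosphomannomutase. On the mirr side they are SmD1, a core protein of the spliceosome, Ptp69D, a receptor tyrosine phosphatase of axon guidance, and CG32112. That annotation is on another release than the regions. The order of the genes is therefore given without positions, and no region was assigned to a single gene.

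Polycomb covered most of the Iroquois window in both libraries. Regions covered 175.3 kb of it in replicate 1 (87.6%) and 170.0 kb in replicate 2 (85.0%). The same lists covered 5.39% and 5.68% of 3L as a whole. The window makes up 0.815% of the arm and held 13.2% of its covered bases in replicate 1 and 12.2% in replicate 2. Of the 20 bins of 10 kb in the window, 15 were covered to the last base in replicate 1 and 14 in replicate 2. The bins without any covered base were 1 in replicate 1 and 2 in replicate 2, and all of them lay at the ends of the window.

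**Figure D1:**
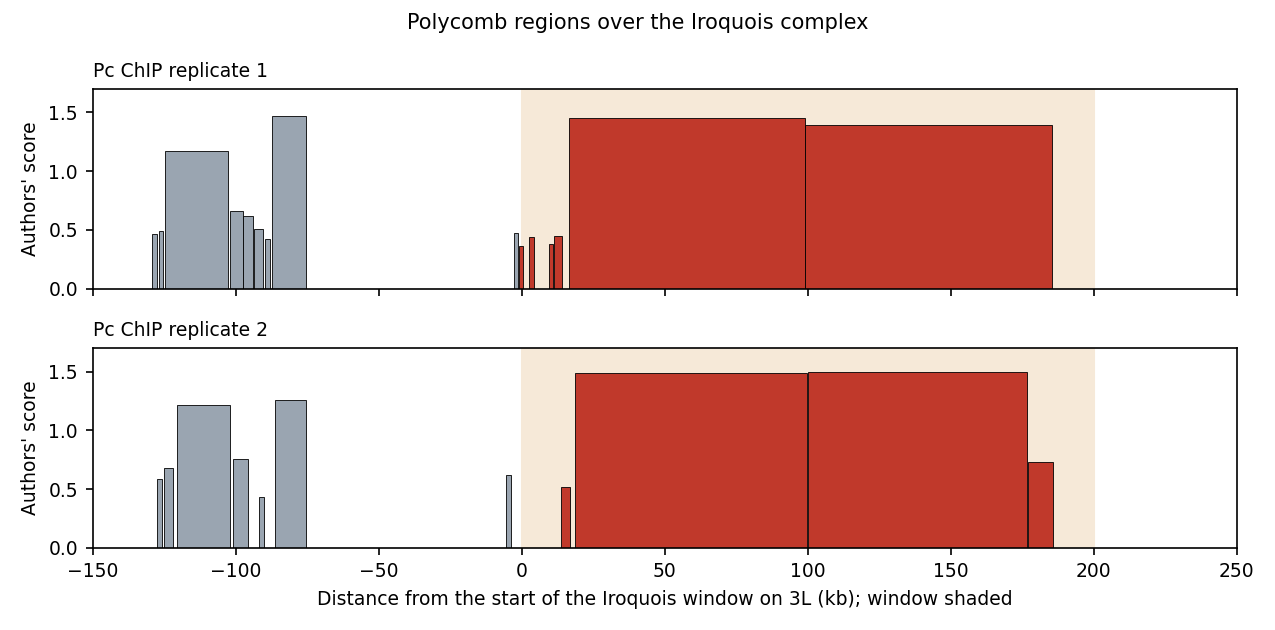
Polycomb regions around the Iroquois complex in Pc ChIP replicates 1 and 2. Bars span each region by its distance in kb from the start of the shaded 200 kb window, and bar height is the authors' score; the regions in the window are red. A pair of wide bars fills most of the window in both libraries. The other bars in the window are low and narrow and lie towards its sides. A separate group that includes taller bars stands further to the left.

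The bulk of the coverage came from a pair of wide neighbouring regions. In replicate 1 they ran from 12556573 to 12639054 (82.5 kb) and from 12639114 to 12725289 (86.2 kb), and held 96.2% of the covered bases of the window. In replicate 2 they ran from 12558461 to 12639798 (81.3 kb) and from 12639998 to 12716553 (76.6 kb), and held 92.9%. By width they ranked 10 and 8 of 1189 in replicate 1, and 5 and 6 of 1405 in replicate 2. The left wide region began 1.89 kb further right in replicate 2 than in replicate 1. The right one ended 8.74 kb earlier in replicate 2, where a separate region from 12716981 to 12725768 (8.79 kb) took up the rest.

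The wide regions were parted near the middle of the window in both libraries, by a very short gap. The gap was 59 bases long in replicate 1, from 12639055 to 12639113, and 199 bases long in replicate 2, from 12639799 to 12639997. These gaps did not overlap, and 685 bases that both libraries covered lay between them. Each gap was filled by the other list, so no base there was left out by both. Short gaps were common in these lists, and of the 301 gaps under 1 kb in replicate 1 and the 295 in replicate 2, 92 and 85 were of at most 199 bases. Only 23 regions of replicate 1 and 17 of replicate 2 measured 50 kb or more, so neighbours that were both this wide were few. Between such neighbours, the Iroquois gap was the only one under 1 kb in replicate 1. In replicate 2 there was 1 further case, on 3R between 2798389 and 2798487. Replicate 1 also had wide neighbours on 3R that were further apart, with a gap between 12583095 and 12587227. With so few wide neighbours, these counts do not show whether a short gap between them was unusual.

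A core of 166.8 kb was set from 12558461, the later start of the left wide region, to 12725289, the earlier end of the last region. Both lists covered 166.1 kb of it (99.6%). These limits leave out the stretch on the left where the lists differed. The share was therefore largely fixed by the choice of limits and is only a description. The remaining 685 bases lay in 3 short gaps, each present in 1 library and covered by the other. Over the whole window, both lists covered 167.0 kb, replicate 1 alone covered 8.23 kb, replicate 2 alone covered 2.95 kb, and 21.8 kb were in neither list. The shared bases were 95.3% of those in replicate 1 and 98.3% of those in replicate 2, with a Jaccard index (shared bases over bases in either list) of 93.7%. On the rest of 3L the Jaccard index was 61.6%, and over both whole lists it was 71.3%. Wide regions overlap more readily than narrow ones, and the rest of 3L holds mostly narrow ones, so these indices do not compare like with like.

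The left side of the window, the ara side in gene order, was where the lists differed most. In replicate 1, 4 narrow regions led up to the wide pair. They ran from 12538963 to 12540432 (1.47 kb), from 12542532 to 12544356 (1.83 kb), from 12549584 to 12550972 (1.39 kb) and from 12551198 to 12554156 (2.96 kb). The first of them crossed the edge of the window, with 433 bases inside and 1037 outside. Replicate 2 had 1 region there, from 12553659 to 12556966 (3.31 kb). It shared 498 bases with the last of the narrow replicate 1 regions and bridged the gap of 2.42 kb that followed in replicate 1. The other 3 narrow replicate 1 regions had no counterpart in replicate 2.

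By region, 3 of the 6 in replicate 1 and 4 of the 4 in replicate 2 overlapped the other list by at least 1 base. Over the whole lists the shares were 64.7% of the replicate 1 regions and 60.7% of the replicate 2 regions. When 50% of both regions had to be shared, only the wide pair was left, with 2 of 6 and 2 of 4 regions, beside 43.5% and 36.8% over the whole lists. Counts this small say little, and they give a narrow region the same weight as one of over 80 kb.

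On the right, the mirr side in gene order, the regions of the window ended at nearly the same base in both libraries. The last region ended at 12725289 in replicate 1 and at 12725768 in replicate 2, 479 bases apart. The last 14.2 kb of the window were in neither list. In replicate 1 the next region to the right was a narrow one from 13132234 to 13133572 (1.34 kb, score 0.530), 406.9 kb away and absent from replicate 2. In replicate 2 the next region lay 664.9 kb away, from 13390718 to 13392854 (2.14 kb, score 0.560). It overlapped the region that came second on this side in replicate 1, 666.2 kb away. With regions under 5 kb apart joined into blocks, the empty stretch to the right ranked 21 of 121 stretches between blocks of 3L in replicate 1 and 6 of 146 in replicate 2. The median stretch measured 78.5 kb and 65.1 kb.

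To the left, Polycomb regions came much closer. The region next to the joined block lay 5.23 kb away in replicate 1, inside the window, and 17.5 kb away in replicate 2, outside it. These stretches ranked 116 of 121 and 107 of 146 by length among those between blocks of 3L. The joining rule leaves no stretch under 5 kb, so the low rank in replicate 1 depends on that distance. With regions under 10 kb apart joined, the left distance in replicate 1 was 72.8 kb. The next region outside the window lay at 12537422 to 12538726 in replicate 1 (1.31 kb, score 0.473). In replicate 2 it lay at 12534598 to 12536172 (1.58 kb, score 0.624). Neither of these narrow regions was found in the other list. The nearest group of regions that both lists held comprised 8 replicate 1 regions, spread over 53.8 kb (12410769 to 12464615), and 6 replicate 2 regions, spread over 52.0 kb (12412557 to 12464593). It ended 85.0 kb and 89.1 kb before the joined Iroquois block. In the 500 kb to the left of the window 19.8% and 17.5% of the bases were covered. In the 500 kb to the right the shares were 0.268% in replicate 1 and 0% in replicate 2.

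**Figure D2:**
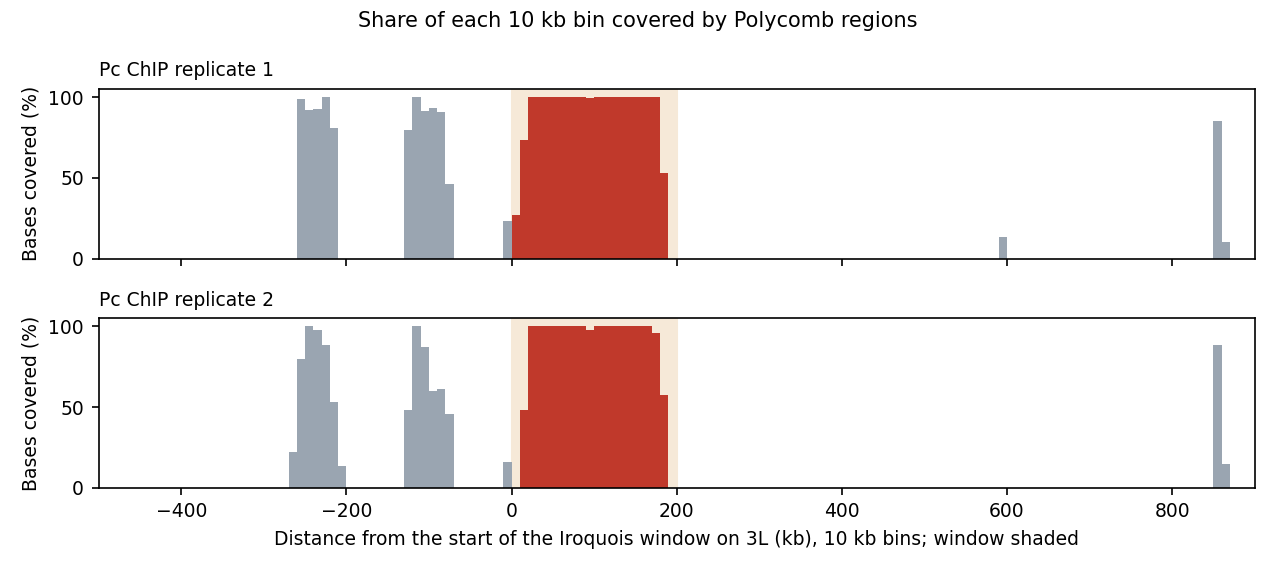
Share of each 10 kb bin covered by Polycomb regions, in percent, by distance in kb from the start of the Iroquois window in Pc ChIP replicates 1 and 2; the window is shaded and its bins are red. The bins from 20 to 170 kb are covered to at least 98.0% in both libraries. The bin from 170 to 180 kb is covered to 100% in replicate 1 and 95.7% in replicate 2, and the other outer bins are partly covered or empty. Within 500 kb, other groups of regions stand only to the left, and replicate 1 has 1 narrow region to the right. The empty stretch to the right measures 406.9 kb in replicate 1 and 664.9 kb in replicate 2.

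The wide Iroquois regions were among the higher-scoring ones of each list. The score is the authors' own value per region, on a scale that the sources used here do not state. It was compared only within a list, by ranks, medians, ranges and means weighted by bases. With the scale unknown, the size of a difference between scores or means cannot be interpreted. In replicate 1 the left wide region scored 1.45 and the right one 1.39, which ranked 44 and 57 of 1189. In replicate 2 they scored 1.49 and 1.50, which ranked 41 and 37 of 1405. Which of the pair scored higher thus differed between the libraries, but the right regions did not span the same stretch. In replicate 2 the right one ended 8.74 kb earlier, and the 8.79 kb region beyond it scored 0.729. The replicate 2 scores of the pair were also close, at 1.487 and 1.496. The order of the pair over a like stretch was therefore not compared. On 3L alone they ranked 3 and 7 of 208 in replicate 1, and 4 and 3 of 265 in replicate 2.

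The narrow regions of the complex scored far lower. In replicate 1 the 4 narrow regions scored between 0.366 and 0.445, below the median of 0.545 over that list, and ranked from 999 to 1163 of 1189. In replicate 2 the narrow region on the left scored 0.516 (rank 1098 of 1405), below that list's median of 0.605. The 8.79 kb region at the right end scored 0.729 (rank 395). In replicate 1, 94.5% of the bases under that last region belonged to the right wide region and so carried its score, and the last 479 bases were in no region. Weighted by bases, the mean score of the window was 1.38 in replicate 1 and 1.43 in replicate 2. The same mean over the whole lists was 1.10 and 1.08. Regions of 50 kb or more scored at least 1.09 in replicate 1 and 1.16 in replicate 2. The wide pair held most of the covered bases of the window, so these means do not compare regions of like width.

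**Figure D3:**
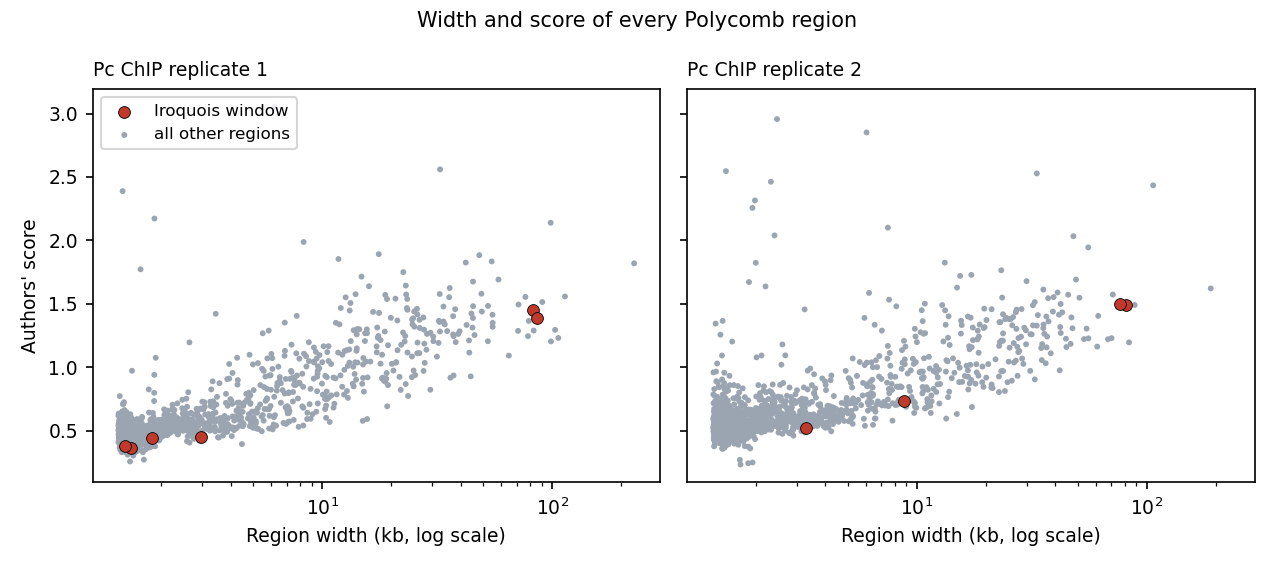
Width in kb (log scale) against the authors' score for every Polycomb region of Pc ChIP replicates 1 and 2, with the regions of the Iroquois window in red. The wide pair lies between 1.39 and 1.50 in score, and the other members lie at or below 0.729.

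Among regions of 50 kb or more, the Iroquois pair was in the middle of the scores. Replicate 1 had 23 such regions, and the pair ranked 10 and 12 of them by score. Replicate 2 had 17, and the pair ranked 8 and 6. The other 21 wide regions of replicate 1 scored from 1.09 to 2.14, with a median of 1.36. The other 15 of replicate 2 scored from 1.16 to 2.43, with a median of 1.40. The other list covered 98.2% and 99.3% of the pair in replicate 1, where the median of the other wide regions was 98.0%. It covered 99.9% and 100% of the pair in replicate 2, where that median was 100%. In both measures the pair lay within the range of the other wide regions.

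With regions under 5 kb apart joined, the Iroquois complex was the longest Polycomb block on 3L in both libraries. The replicate 1 block spanned 175.7 kb, with ends at 12549584 and 12725289. The replicate 2 block spanned 172.1 kb, with ends at 12553659 and 12725768. Each was made of 4 regions. The next longest block on 3L measured 98.5 kb in replicate 1 and 88.0 kb in replicate 2. Over all sequences the Iroquois block ranked 4 of 599 and 4 of 766 by length. The next longer block was on 3R in replicate 1 (211.5 kb) and on 2L in replicate 2 (179.9 kb). The next shorter one was on 2L in replicate 1 (168.4 kb) and on 3R in replicate 2 (156.0 kb).

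The Iroquois block held few regions for its length, but none of them made up most of it. Its regions covered 98.5% of it in replicate 1 and 98.8% in replicate 2, which ranked 5 of 17 and 3 of 12 among blocks of 100 kb or more. The other blocks of that length were covered to a median of 92.8% and 93.8%, and held a median of 9 and 11 regions. Fewer regions than in the Iroquois block were found in 5 blocks of replicate 1 and in 3 of replicate 2. The widest region made up 49.0% of the Iroquois block in replicate 1 and 47.3% in replicate 2, which ranked 9 of 17 and 7 of 12, near the medians of 48.1% and 50.8% over the other blocks. The block next shorter in length held 25 regions in replicate 1 and 18 in replicate 2, and was covered to 81.0% and 88.4%. Its base-weighted mean score was 0.810 and 0.957, and that of the Iroquois block was 1.39 and 1.43. By this mean score the Iroquois block ranked 6 of 17 and 4 of 12.

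**Figure D4:**
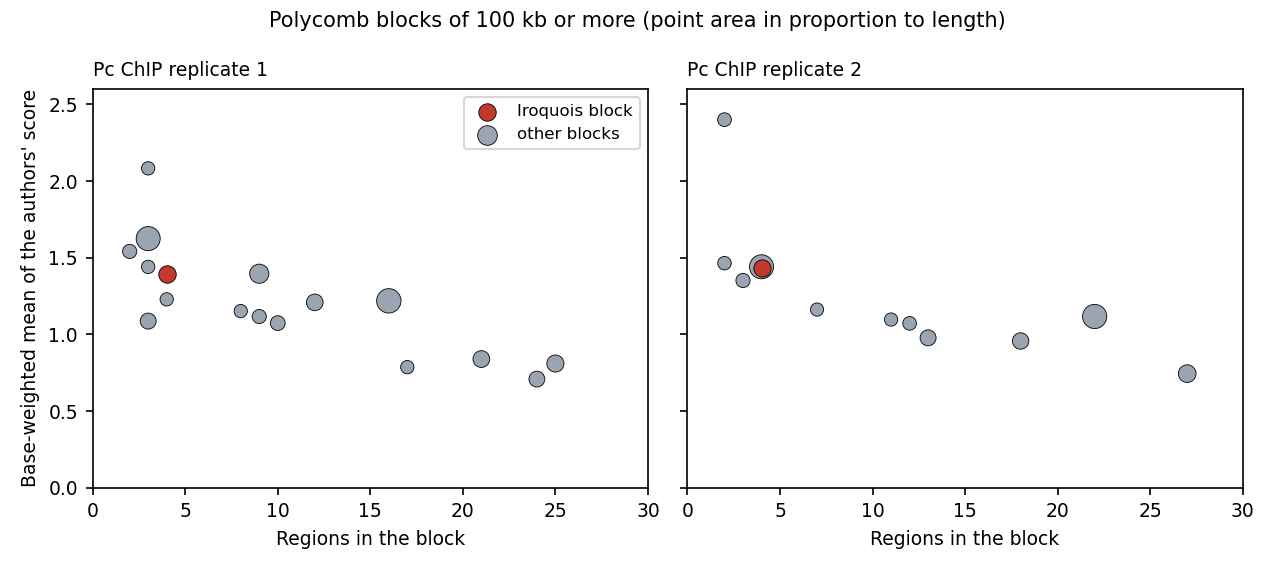
Number of regions against the base-weighted mean of the authors' score for each Polycomb block of 100 kb or more in Pc ChIP replicates 1 and 2, with point area in proportion to block length. The Iroquois block (red) holds 4 regions in both libraries, at a mean score of 1.39 and 1.43, among the blocks with few regions and higher scores.

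The block's extent was also similar in both libraries. Its left end differed by 4.08 kb and its right end by 0.479 kb. For the other 16 blocks of 100 kb or more in replicate 1, matched to the replicate 2 block with the largest overlap, ends differed by 0.048 to 105.3 kb, with a median of 2.52 kb. The Jaccard index over the Iroquois block was 94.9%, the third highest of 17, where the others had a median of 90.3% and ran from 63.5% to 99.3%. The higher values belonged to a 3R block from 12482202 to 12814474 (99.3%) and to a 2R block from 7350294 to 7465881 (99.1%). The block was chosen with its coverage in both lists known, so its place in this order is a description.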

How the data were processed

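Values came from the deposited region lists of the 2 Pc ChIP libraries. Formaldehyde at 1.8% was the fixative and antibody was added to the crosslinked chromatin, per the labels' protocols. The submitters' processing notes name Bowtie 0.12.7 for these samples. Positions are on FlyBase r5, per the file headers. The sources used here do not give the region caller, its threshold or its filters, and each replicate had a list of its own. The deposited score of each region has no stated scale. Depth was unknown and the inputs have no values here, so no interval or count floor could be given. Start and end coordinates are the deposited ones, 1-based.

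Overlap, coverage, gaps and ranks were computed with Python 3.11.15, and plots were drawn with matplotlib 3.10.9. Interval operations were tested on simulated data and matched a base-by-base count in 20 of 20 lists. Regions under 5 kb apart were joined into blocks. Gene order came from the RefSeq gene table of Release 6, whose coordinates were not converted. Groups and replicate numbers follow the titles. Experiment numbers in the ChIP source names are crossed against the file names. The recorded link was used; an exchange would swap the replicate names only.

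The genes named are ara, caup and mirr, and the 3 nearest protein-coding genes on each side. The regions named are all those in the window, the next on either side, and the blocks adjacent in length. The blocks and the wide pairs named on 3R and 2R beside these were picked out after their values were seen. The members, the window and the lists were chosen with earlier results of these data known. Alternatives were a stricter score threshold, other windows, joining distances and overlap rules. No sequence was printed, and the linked genes planned for an annotation of FlyBase r5 were not placed.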

Additional observations from a re-analysis of the deposited data

How the results depend on the processing

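Of the 37 alternatives set at the start, 18 kept the value within the spread between the libraries (for counts, within 1.5 times; for the Jaccard index, within 1 percentage point), and 19 moved it further. With only the higher-scoring 50% of each list, replicate 1 had 2 regions in the window and a covered share of 84.3%. This setting gave a block of 168.7 kb in replicate 1 and 167.3 kb in replicate 2, replicate 1 distances of 92.0 kb to the left, against 5.23 kb in the full list, and of 666.2 kb to the right, against 406.9 kb, and a Jaccard index of 98.2%. A window wider by 50 kb on each side was covered to 59.2% and 57.2%, with a Jaccard index of 91.7%, and one narrower by 20 kb to 99.96% and 99.6%. Joining regions under 1 kb apart gave blocks of 168.7 kb and 167.3 kb, and left 2 regions in the window in replicate 2. Joining at 2 kb gave 168.7 kb in replicate 1, and joining at 10 kb gave 187.9 kb and a left distance of 72.8 kb there. Requiring 50% of both regions left 2 of the 4 replicate 2 regions found. Leaving out regions under 2 kb, an alternative added after the data were seen, left 3 regions in replicate 1 and a Jaccard index of 95.7%. With the higher-scoring regions and with joining at 1 kb, the block was the wide pair in replicate 1, and the wide pair with the 8.79 kb region at its right end in replicate 2. No paired analysis was possible because the inputs have no values here, and leaving out a replicate changes no value given per library. Depth was unknown, so a region missing from 1 list may have been unenriched or under the threshold.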
